A study of Oryza sativa with 6 samples.

Results

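Mixed neighbours were the K+-specific and Na+-specific IP-G4s of rice that lay within 1 kb of each other, measured between their nearest edges. An IP-G4 is a peak of DNA pulled down by an antibody against G-quadruplexes (G4s), and a specific IP-G4 was one found in both replicates of one cation condition with no overlap with the reproducible IP-G4s of the other. The members were chosen by position alone, from the lists of specific IP-G4s on all 12 chromosomes. A Na+-specific row of these lists was a member if any K+-specific row lay at most 1000 bp away, and those K+-specific rows were members as well. Of the 25509 specific rows, 2433 (9.54%) were members and formed 1310 mixed pairs. They comprised 1235 of 16725 K+-specific rows (7.38%) and 1198 of 8784 Na+-specific rows (13.6%). K+-specific rows per Na+-specific row came to 1.03 among members, against 1.90 in the lists as a whole. The rule itself brings the numbers of both types close together, since it joins unlike rows and most members had a single partner.

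The rows came from BG4-DNA-IP-seq of wild-type (WT) rice seedlings, in which fragmented genomic DNA was denatured and refolded with polyethylene glycol and either KCl (K+PEG) or NaCl (Na+PEG), then recovered with the anti-BG4 antibody. Each condition had 2 replicate libraries, and 2 input libraries without antibody served as the control for peak calling. The cation differed at the folding step, whereas the incubation and washing buffers contained KCl in both conditions. The specific lists held positions without any value of a single library, and the peaks of the 4 libraries were compared on the first 5.86 Mb of chromosome 1, the stretch covered by all library lists used here.

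G4s form where runs of guanines stack into planes held together by hydrogen bonds, and a monovalent cation between the planes stabilizes the stack. K+ is in general the stronger stabilizer, and the cation can also change how the strands of a G4 are oriented. Antibodies such as BG4 recognize the folded structure rather than a given sequence, so an IP-G4 marks a fragment that could fold, with a resolution set by fragment length and peak calling.

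As single examples, which do not describe the other rows, the oligos synthesized by the study for a K+-specific and a Na+-specific IP-G4 are given. They are written 5′ to 3′, with runs of at least 3 guanines in capitals. Their positions were not looked up here, so it was not tested whether either belonged to a mixed pair. The K+-specific oligo had 4 such runs and a GC content of 88.9%. The Na+-specific oligo had 3 such runs, the longest of 10 guanines, and a GC content of 64.5%. By circular dichroism spectroscopy, the study found a similar amplitude for the Na+-specific oligo with Na+ and with K+. On its dot blots, the BG4 signal of that oligo was stronger with NaCl than with KCl.
K+-specific oligo: GGGcggctGGGaggccGGGGtGGGGGG
Na+-specific oligo: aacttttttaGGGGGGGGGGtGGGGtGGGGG

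Mixed pairs lay at every distance up to the limit. Their median gap was 394.5 bp, with quartiles of 183.25 and 682 bp. In 3 pairs the rows touched, and in 24 pairs the gap was at most 10 bp. A gap of at most 100 bp occurred in 183 pairs (14.0%), of at most 200 bp in 358 pairs (27.3%) and of at most 500 bp in 786 pairs (60%). The K+-specific row had the lower coordinate in 659 pairs and the Na+-specific row in 651. Gaps of 901 to 1000 bp were found in 109 pairs and gaps of 1001 to 1100 bp, just outside the limit, in 100 pairs, so that the limit fell in an even part of the distribution. The widest gap inside the limit was 1000 bp, for example between chr4:17685739-17685992 (K+-specific) and chr4:17684523-17684738 (Na+-specific). The narrowest gap outside it was 1002 bp, between chr9:7281974-7282247 (K+-specific) and chr9:7280750-7280971 (Na+-specific).

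Pairs of unlike type held all of the closest positions in the lists. Every one of the 183 pairs of specific rows with a gap of at most 100 bp was mixed. The smallest gap between 2 K+-specific rows was 110 bp and that between 2 Na+-specific rows was 107 bp. Within single libraries on the chromosome 1 stretch, the smallest gap between neighbouring peaks was 112 and 125 bp in K+PEG replicates 1 and 2, and 118 and 114 bp in Na+PEG replicates 1 and 2. No library thus held peaks on the stretch as close together as these mixed pairs were on the 12 chromosomes. Rows of like type are segments of peaks of the same 2 libraries, so they cannot lie closer than the peaks of those libraries do. Mixed pairs join rows of different lists and are not bound by that spacing. Library peaks were seen on the stretch only, and any further part of peak calling was not tested.

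**Figure D1:**
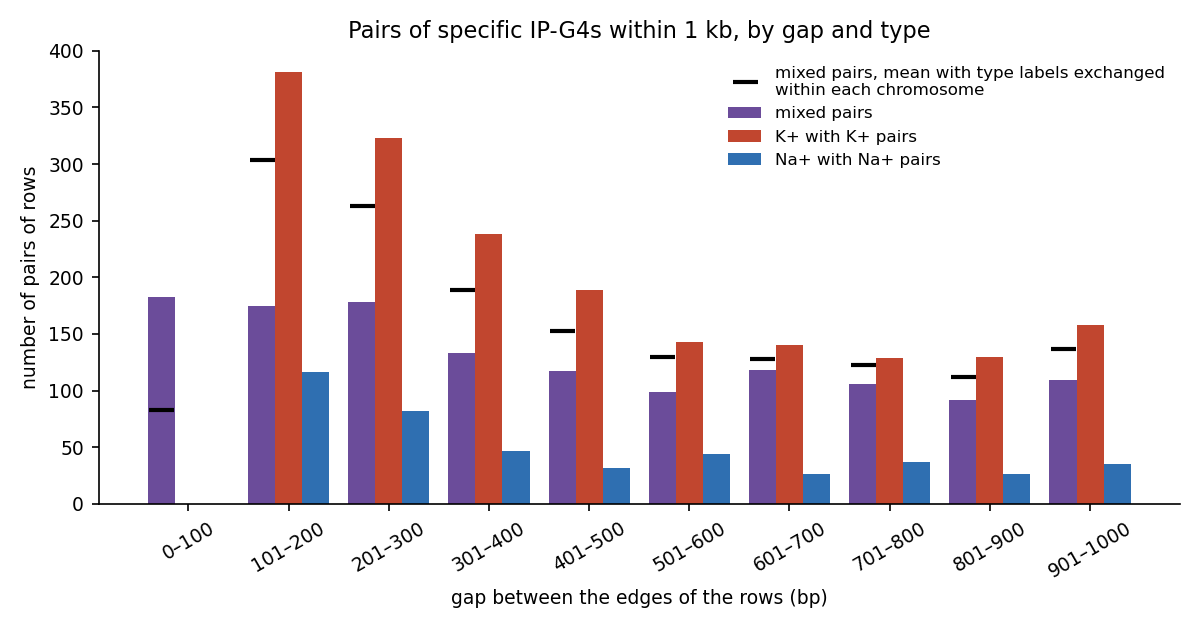
Number of pairs of specific rows within 1 kb (y axis) by the gap between their edges in bp (x axis), for mixed pairs, K+ with K+ pairs and Na+ with Na+ pairs over all 12 chromosomes, with a black line at the mean number of mixed pairs when the type labels are exchanged within each chromosome. All 183 pairs in the first bin are mixed, and in every wider bin the mixed pairs stand below the line.

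Beyond 100 bp pairs of like type occurred as well, and mixed pairs were fewer than under exchange of the type labels. The level used for comparison was the mean number of mixed pairs over all exchanges of the type labels among the specific rows of each chromosome, which leaves every position, and so the clustering of rows, as it is. At gaps of 0 to 100 bp, 183 pairs were mixed, against an exchange mean of 82.8, a ratio of 2.21. Rows of like type did not occur at these gaps, as stated above, so this ratio only restates that all pairs there were mixed. At gaps of 101 to 1000 bp, 1127 of 3403 pairs (33.1%) were mixed, against an exchange mean of 1536 (45.2%), a ratio of 0.733. The ratio was lowest in the bin of 101 to 200 bp, at 0.577, and highest among the wider bins in that of 601 to 700 bp, at 0.92.

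Over the whole window, 1310 of 3586 pairs of specific rows (36.5%) were mixed, against an exchange mean of 1619 pairs, a ratio of 0.809. The other pairs comprised 1831 of K+ with K+ type and 445 of Na+ with Na+ type. In the lists, 1198 Na+-specific rows (13.6%) had a K+-specific row in the window, against an exchange mean of 1465 (16.7%). These levels are descriptions, since the rule that chose the members fixed the count. They take in the 183 pairs at gaps of 0 to 100 bp, all of them mixed, and the ratio beyond those gaps was 0.733. Neighbours of the same type were about as frequent around members as around other rows. A second row of the same type lay within 1 kb of 219 of 1235 K+-specific members (17.7%), against 3024 of 15490 other K+-specific rows (19.5%), and of 142 of 1198 Na+-specific members (11.9%), against 697 of 7586 other Na+-specific rows (9.19%).

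The 10 closest pairs had gaps of 0 to 4 bp. Rows touched at chr1:34396557-34396597 (K+-specific, 41 bp) and chr1:34396357-34396556 (Na+-specific, 200 bp). They also touched at chr1:40189915-40189988 (K+-specific, 74 bp) and chr1:40189678-40189914 (Na+-specific, 237 bp). The third touching pair was chr10:4061405-4061627 (K+-specific, 223 bp) with chr10:4061628-4061804 (Na+-specific, 177 bp). Each touching pair had 1 row shorter than 200 bp, the length of the shortest peak in each library list.

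On chromosome 3 a K+-specific row of 212 bp, chr3:3014170-3014381, stood between 2 Na+-specific rows and supplied 2 of these pairs. Its neighbours were chr3:3014146-3014168 (23 bp), 1 bp away, and chr3:3014385-3014641 (257 bp), 3 bp away. A gap of 1 bp also separated chr3:25886632-25886941 (K+-specific, 310 bp) from chr3:25886943-25887137 (Na+-specific, 195 bp), and chr4:6347068-6347174 (K+-specific, 107 bp) from chr4:6346862-6347066 (Na+-specific, 205 bp). The remaining pairs were of fuller rows. A gap of 3 bp lay between chr10:10375040-10375458 (K+-specific, 419 bp) and chr10:10374831-10375036 (Na+-specific, 206 bp). Gaps of 4 bp lay between chr2:14161251-14161488 (K+-specific, 238 bp) and chr2:14161493-14161785 (Na+-specific, 293 bp), and between chr11:16976065-16976297 (K+-specific, 233 bp) and chr11:16976302-16976481 (Na+-specific, 180 bp). At these positions the type of the specific rows changed within 4 bp.

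Most members had a single partner. Of the K+-specific members, 1162 had 1 Na+-specific partner, 71 had 2 and 2 had 3. Of the Na+-specific members, 1093 had 1 K+-specific partner, 99 had 2, 5 had 3 and 1 had 4. When rows of both types were chained by gaps of at most 1 kb, they formed 1123 mixed loci with a median span of 1038 bp. The chains took in 126 further rows that had no row of the other type within 1 kb. A single K+-specific and a single Na+-specific row made up 871 loci (77.6%), and 252 loci (22.4%) held 3 or more rows.

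Among the 201 loci of 3 rows, the types alternated in 71 and stood side by side in the rest. A Na+-specific row lay between 2 K+-specific rows in 41 of them, and a K+-specific row lay between 2 Na+-specific rows in 30. In 79 loci 2 K+-specific rows were neighbours with the Na+-specific row at one end, and in 51 loci 2 Na+-specific rows were neighbours with the K+-specific row at one end. The locus with the most rows, chr8:14861573-14866237, spanned 4665 bp and held 1 Na+-specific row followed by 5 K+-specific rows, with gaps of 411 to 896 bp. There were 8 loci of 5 rows, and the first of them by position were as follows. Locus chr1:27889654-27892226 (2573 bp) had 3 K+-specific rows followed by 2 Na+-specific rows, and chr4:1091944-1094899 (2956 bp) had 4 K+-specific rows followed by 1 Na+-specific row.

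Mixed pairs were found on every chromosome. Their number ranged between 62 on chromosome 9 and 147 on chromosome 4, and their density between 2.66 per Mb on chromosome 6 and 4.62 per Mb on chromosome 10. The share of Na+-specific rows that were members was highest on chromosome 10, with 94 of 577 rows (16.3%), and lowest on chromosome 6, with 73 of 711 rows (10.3%). The exchange means on these chromosomes were 18.7% and 16.2%. On 12 of 12 chromosomes the number of mixed pairs was below the exchange mean, with ratios of 0.625 on chromosome 9 to 0.908 on chromosome 2. The counts of each chromosome also take in the pairs at gaps of 0 to 100 bp, all of them mixed. The 12 chromosomes come from the same 4 libraries and are not independent replicates.

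**Figure D2:**
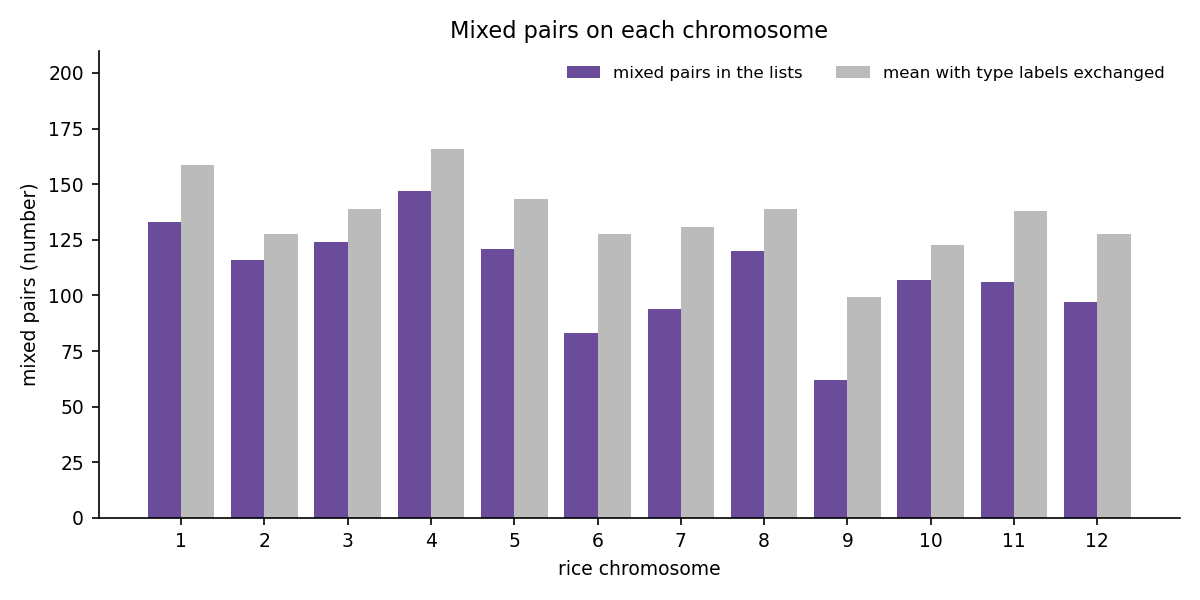
Number of mixed pairs (y axis) on each of the 12 rice chromosomes (x axis), with the number in the lists beside the mean number when type labels are exchanged within the chromosome. The number in the lists is lower on every chromosome, and the gap is widest in proportion on chromosome 9, with 62 mixed pairs. Pairs at gaps of 0 to 100 bp, all of them mixed, are included.

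Members were spread along the chromosomes. With each chromosome divided into 5 parts of equal length, taken in order, the share of K+-specific rows that were members was 7.25%, 6.85%, 8.28%, 6.98% and 7.55%, and that of Na+-specific rows was 13.5%, 13.6%, 15%, 12.4% and 13.5%. The highest share lay in the middle part for both types, and this spread was not tested. Of 379 bins of 1 Mb, 352 held a mixed pair and 27 held none, with a median of 3 pairs. The fullest bin, at 7 to 8 Mb of chromosome 10, held 16 mixed pairs among 53 K+-specific and 31 Na+-specific rows. Next came 10 to 11 Mb of chromosome 1 and 15 to 16 Mb of chromosome 11, with 12 pairs each. Local density of rows differed little between members and other rows, since the median number of specific rows in the 1 Mb bin was 72 for members and 70 for other rows of either type.

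Mean lengths of members were a few bp below those of other rows of their type. K+-specific members averaged 289 ± 152 bp (SD, n = 1235 rows), against 299 ± 147 bp (SD, n = 15490) for other K+-specific rows, with medians of 251 and 259 bp. Na+-specific members averaged 238 ± 109 bp (SD, n = 1198), against 244 ± 91.7 bp (SD, n = 7586) for other Na+-specific rows, with medians of 225 and 227 bp. The differences were small beside the spread of lengths within each group.

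The per-chromosome difference in mean length, members minus other rows, was −9.44 ± 12.8 bp for the K+ type (SD over 12 chromosomes), with members shorter on 8 of 12 chromosomes. For the Na+ type it was −5.47 ± 9.04 bp, with members shorter on 9 of 12 chromosomes. Against other rows that had a neighbour of their own type instead, the differences were −0.852 bp for the K+ type and −0.228 bp for the Na+ type. With a window of 2 kb they were −1.63 and −0.557 bp, and for the Na+ type the difference in medians was −0.958 bp. These differences are given without a test, since position and length come from the same edges and all chromosomes from the same 4 libraries.

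The short rows were the ones most unequally shared. Rows below 200 bp made up 222 K+-specific members (18.0%), against 15.7% of other K+-specific rows, and 358 Na+-specific members (29.9%), against 24.3% of other Na+-specific rows. Rows below 50 bp were rarer. They made up 30 K+-specific members (2.43%), against 191 other K+-specific rows (1.23%), and 53 Na+-specific members (4.42%), against 100 other Na+-specific rows (1.32%). Such rows are the narrow segments that the 2 replicates of a condition shared, and not whole peaks.

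Short rows were most frequent in the close pairs. The K+-specific row was below 200 bp in 27.3% of pairs with gaps of 0 to 100 bp, 21.1% at 101 to 200 bp, 16.4% at 201 to 500 bp and 15.3% at 501 to 1000 bp. The Na+-specific row was below 200 bp in 40.4%, 44.6%, 26.9% and 26.0% of pairs over the same ranges. The mean length of the K+-specific row was 265 ± 152 bp in the 183 closest pairs and 298 ± 157 bp in the 524 pairs with gaps of 501 to 1000 bp. That of the Na+-specific row was 206 ± 120 bp in the closest pairs and 254 ± 114 bp in the widest (SD over pairs). These values describe the pairs, since the gap was used to choose them.

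**Figure D3:**
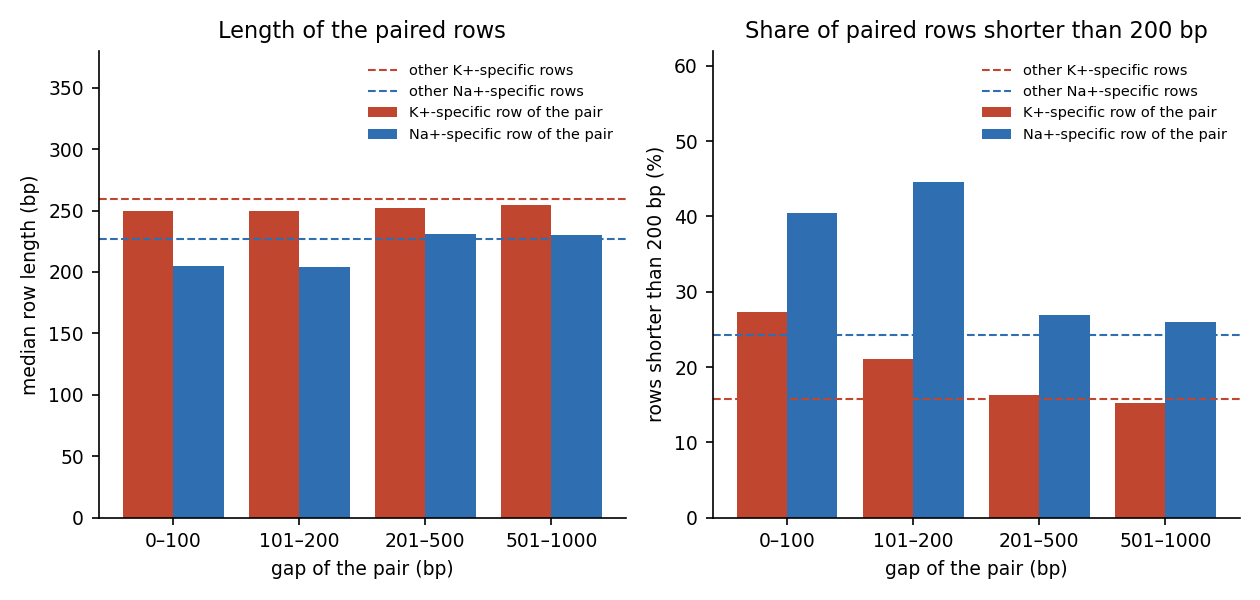
Left, median length in bp of the K+-specific and Na+-specific row of mixed pairs (y axis) by the gap of the pair in bp (x axis), and right, the percentage of those rows shorter than 200 bp, with dashed lines at the values of other rows of each type. In pairs with gaps up to 200 bp, Na+-specific rows have medians of 205 and 204 bp, against 227 bp for other Na+-specific rows. In these pairs 40.4% and 44.6% of Na+-specific rows are shorter than 200 bp, against 24.3% of other Na+-specific rows. The medians of K+-specific rows lie between 250 and 254.5 bp at all gaps.

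Within a pair the K+-specific row was longer in 808 of 1310 pairs (61.7%), the Na+-specific row in 497, and 5 pairs had rows of equal length. The median difference, K+ minus Na+, was 38 bp. Taking any K+-specific with any Na+-specific row of the lists, the K+-specific row was longer in 61.4% of combinations, so the inequality within mixed pairs was that of the lists in general.

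The partners of the longest members ranged between 45 and 346 bp in length. The longest K+-specific members were chr6:15310617-15311910 (1294 bp), whose Na+-specific partner had 45 bp at a gap of 649 bp, chr9:8174391-8175593 (1203 bp), with a partner of 284 bp, and chr4:4011558-4012621 (1064 bp), with a partner of 346 bp. The longest Na+-specific members were chr1:21487731-21488607 (877 bp), whose K+-specific partner had 216 bp at a gap of 301 bp, chr10:9523535-9524314 (780 bp), with a partner of 51 bp, and chr11:13305204-13305978 (775 bp), with a partner of 187 bp.

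To see what the libraries held at mixed pairs, the peaks of all 4 libraries were laid under the members on the first 5855384 bp of chromosome 1. The stretch held 748 and 871 peaks in K+PEG replicates 1 and 2, and 803 and 630 peaks in Na+PEG replicates 1 and 2. Intersecting these lists gave back all 326 specific rows of the stretch (205 K+-specific and 121 Na+-specific) with the same edges. Among them were 16 mixed pairs at 15 loci, with 15 K+-specific and 16 Na+-specific members. Their gaps ranged between 105 and 915 bp with a median of 445 bp, so that the closest pairs of the 12 chromosomes were not represented. Without Na+PEG replicate 2, with the other Na+PEG library standing for the condition, the lists gave 10 mixed pairs. No segment common to both conditions lay between the rows of any of the 16 pairs.

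Most members of the stretch were not empty in the other condition. A peak of at least 1 Na+PEG library overlapped 12 of 15 K+-specific members (80%, Wilson interval at 95% of 54.8 to 93.0%), against 133 of 190 other K+-specific rows (70%) and 70.7% of all K+-specific rows of the stretch. A peak of at least 1 K+PEG library overlapped 13 of 16 Na+-specific members (81.3%, Wilson interval of 57.0 to 93.4%), against 87 of 105 other Na+-specific rows (82.9%) and 82.6% of all. The members' shares were thus near those of the stretch as a whole, and the intervals, which cover counting error only, include them.

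The peaks of the other condition came mostly from a single library. Na+PEG replicate 1 had a peak over 9 of the 15 K+-specific members and Na+PEG replicate 2 over 4, with 1 member under peaks of both. K+PEG replicate 2 had a peak over 10 of the 16 Na+-specific members and K+PEG replicate 1 over 3, with none under both. These 2 libraries, K+PEG replicate 2 and Na+PEG replicate 1, also held the most peaks on the stretch, with 871 and 803. Without Na+PEG replicate 1 the share of K+-specific members with a peak of the other condition was 26.7%, and without K+PEG replicate 2 that of Na+-specific members was 18.8%. The study's read totals also make them the more deeply sequenced library of each condition. The part of depth in these shares was not tested.

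In all 16 pairs, at least 1 library had peaks under both rows. This held for 1 library in 5 pairs and for 2 libraries in 11, and for 3 or 4 libraries in none. Peaks under both rows were found in 3 pairs for K+PEG replicate 1, 10 for K+PEG replicate 2, 10 for Na+PEG replicate 1 and 4 for Na+PEG replicate 2. Both rows overlapped a peak of the other condition in 10 pairs, the K+-specific row alone did in 3, and the Na+-specific row alone did in 3. The choice of specific rows limits the number of libraries with peaks under both rows. It bars any overlap with segments that both libraries of the other condition share. Over all specific rows of the stretch, 2 of 205 K+-specific and 0 of 121 Na+-specific rows lay under peaks of both libraries of the other condition. In each pair at least 1 row also lay under a peak of the other condition. Over all specific rows of the stretch, such a peak lay under 70.7% of K+-specific and 82.6% of Na+-specific rows. The count of 16 pairs was thus not read as particular to mixed pairs.

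**Figure D4:**
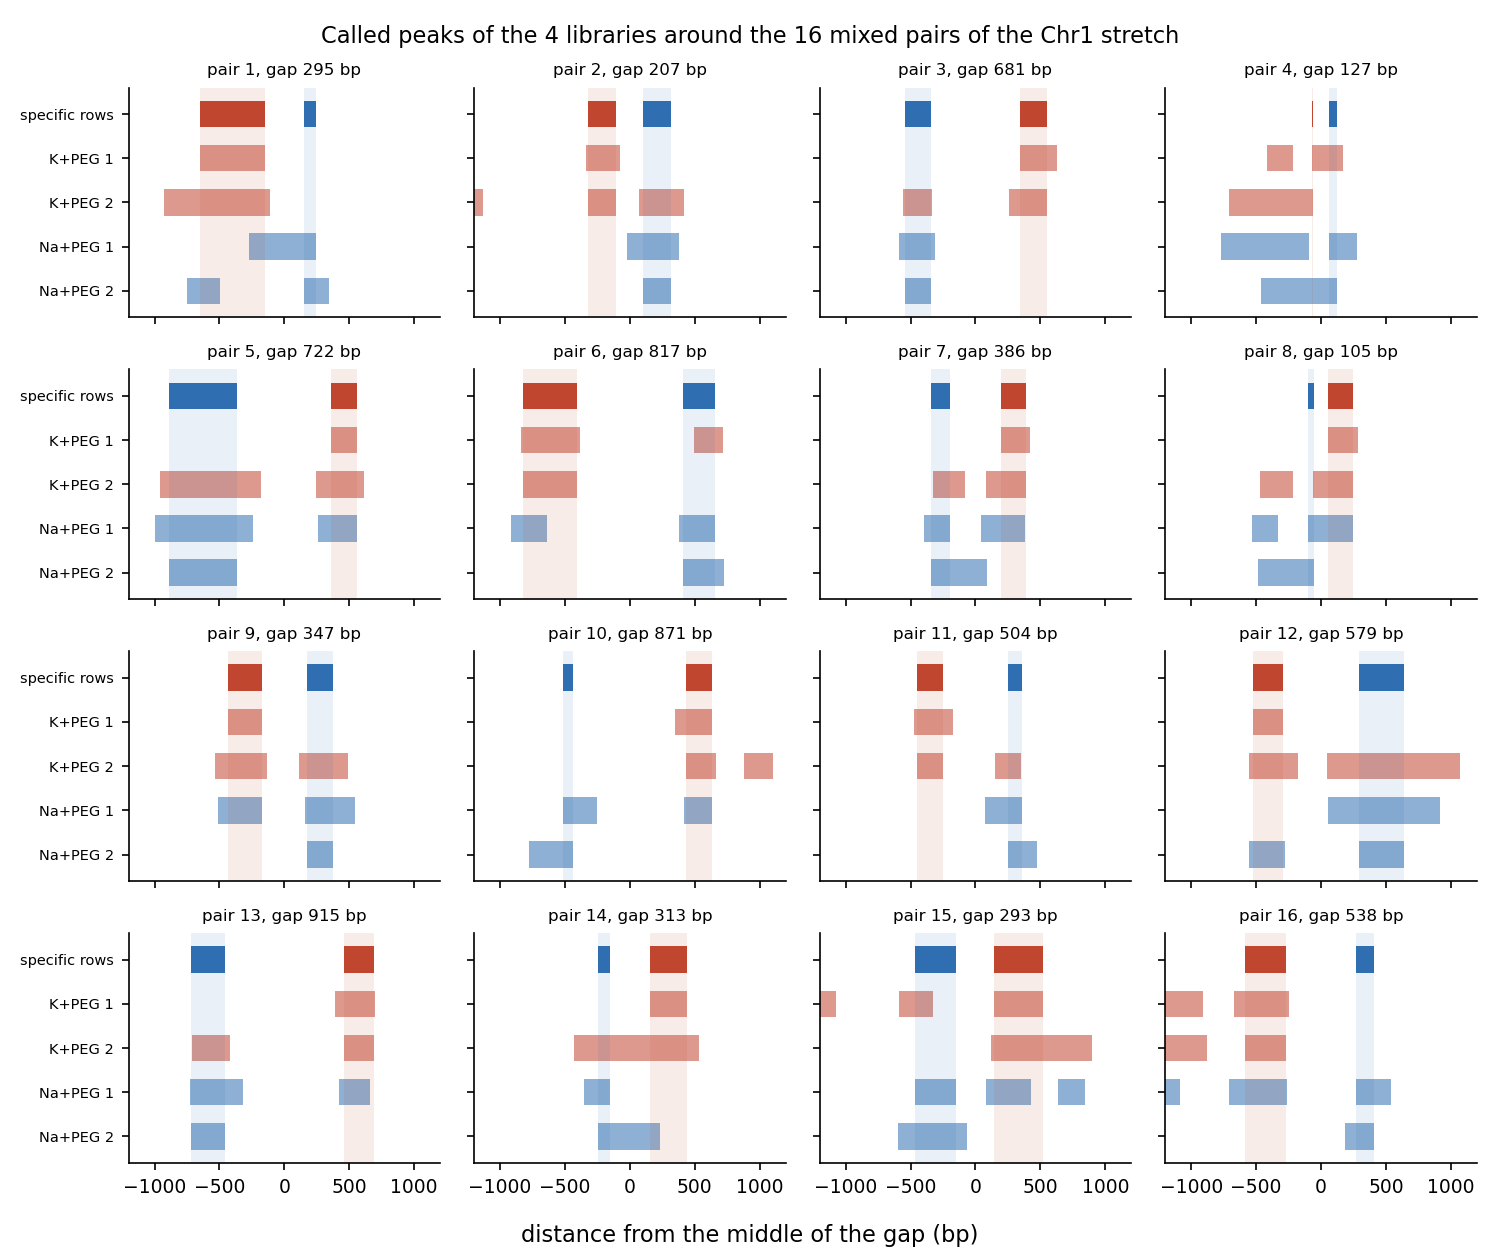
Called peaks of K+PEG replicates 1 and 2 (red) and Na+PEG replicates 1 and 2 (blue) around each of the 16 mixed pairs of the chromosome 1 stretch, with the K+-specific row in dark red, the Na+-specific row in dark blue and the distance from the middle of the gap in bp on the x axis. Every specific row lies where both libraries of its own condition overlap. In all 16 pairs at least 1 library has peaks under both rows. Over all specific rows of the stretch, a peak of the other condition lay under 70.7% of K+-specific and 82.6% of Na+-specific rows.

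The highest fold enrichment under a member was found in the following pair. The K+-specific row chr1:1817427-1817690 and the Na+-specific row chr1:1818038-1818239 lay 347 bp apart. Under the K+-specific row, fold enrichment over input was 4.93 in K+PEG replicate 1, 9.49 in K+PEG replicate 2 and 4.55 in Na+PEG replicate 1, with no peak in Na+PEG replicate 2. Under the Na+-specific row it was 6.74 in K+PEG replicate 2, 4.34 in Na+PEG replicate 1 and 3.26 in Na+PEG replicate 2, with no peak in K+PEG replicate 1. Here 2 libraries, 1 of each condition, recorded both rows, and the type of each row turned on a single library in which no peak was called.

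Other pairs were of the same make. At chr1:1307761-1307960 (K+-specific) and chr1:1306509-1307038 (Na+-specific), 722 bp apart, the K+-specific row had folds of 3.29 and 5.86 in K+PEG replicates 1 and 2 and 4.28 in Na+PEG replicate 1. The Na+-specific row had folds of 5.95 in K+PEG replicate 2 and 4.45 and 4.47 in Na+PEG replicates 1 and 2. K+PEG replicate 2 was thus higher on the Na+-specific row than either Na+PEG library. At chr1:4886888-4887120 (K+-specific) and chr1:4885715-4885972 (Na+-specific), 915 bp apart, K+PEG replicate 2 had 3.92 on the K+-specific row and 4.22 on the Na+-specific row, and Na+PEG replicate 1 had 3.44 and 2.67.

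At chr1:1623123-1623536 (K+-specific) and chr1:1624354-1624599 (Na+-specific), 817 bp apart, the K+PEG library without a peak on the Na+-specific row was replicate 2 in place of replicate 1. The K+-specific row had folds of 4.36, 2.79 and 2.88 in K+PEG replicates 1 and 2 and Na+PEG replicate 1. The Na+-specific row had 3.39 in K+PEG replicate 1 and 2.52 and 4.08 in Na+PEG replicates 1 and 2. The pair at chr1:5490554-5490930 (K+-specific) and chr1:5489939-5490260 (Na+-specific), 293 bp apart, had the same libraries on each side, with 4.26, 5.24 and 4.28 on the K+-specific row and 3.88, 3.0 and 5.37 on the Na+-specific row.

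In 3 pairs the K+-specific row had no peak of either Na+PEG library. At chr1:820625-820847 (K+-specific) and chr1:821055-821270 (Na+-specific), 207 bp apart, the K+-specific row had folds of 7.17 and 5.11 in K+PEG replicates 1 and 2 and no peak in either Na+PEG library. The Na+-specific row had 4.16 and 3.76 in Na+PEG replicates 1 and 2, and a peak of 3.62 in K+PEG replicate 2. The K+-specific rows chr1:1066860-1067072 and chr1:3200518-3200717 were likewise without a Na+PEG peak, with folds of 2.40 and 2.78 and of 5.29 and 2.73 in K+PEG replicates 1 and 2. Their Na+-specific partners, chr1:1065979-1066178 at 681 bp and chr1:3201222-3201325 at 504 bp, had folds of 3.56 and 3.36 and of 2.97 and 3.02 in Na+PEG replicates 1 and 2, and K+PEG replicate 2 had peaks of 3.67 and 3.37 there.

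The reverse case, a Na+-specific row without any K+PEG peak, occurred in 3 pairs. At chr1:5637371-5637688 (K+-specific) and chr1:5638227-5638362 (Na+-specific), 538 bp apart, the Na+-specific row had folds of 3.73 and 3.12 in Na+PEG replicates 1 and 2. Its K+-specific partner had 7.94 and 3.01 in K+PEG replicates 1 and 2 and 3.17 in Na+PEG replicate 1. At chr1:1928069-1928266 (K+-specific) and chr1:1927118-1927197 (Na+-specific), 871 bp apart, the Na+-specific row had 2.02 and 3.04, and the K+-specific row had 3.82 and 3.07 in the K+PEG libraries and 3.51 in Na+PEG replicate 1. The third was the pair nearest the chromosome end, chr1:65832-66335 (K+-specific) and chr1:66631-66726 (Na+-specific). There the K+-specific row had 4.47 and 4.48 in the K+PEG libraries and 3.0 and 2.21 in the Na+PEG libraries, and was the only K+-specific member under peaks of both Na+PEG libraries.

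In 4 of the 16 pairs, with gaps of 105 to 313 bp, a single peak of 1 library spanned both rows. The other 12 pairs had no such peak. Spanning peaks occurred in 5 of 15 K+ with K+ pairs and 1 of 3 Na+ with Na+ pairs of the stretch as well, so they were not found in mixed pairs alone. In the pair nearest the chromosome end, a peak of Na+PEG replicate 1 of 519 bp with a fold of 3.0 covered the 295 bp gap and had its summit in the Na+-specific row. At chr1:5350804-5351088 (K+-specific) and chr1:5350404-5350490 (Na+-specific), 313 bp apart, a peak of K+PEG replicate 2 (fold 3.19) had its summit in the K+-specific row, and a peak of Na+PEG replicate 2 (fold 2.37) had its summit in neither row.

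The closest pairs of the stretch were of this kind and held the smallest rows. At chr1:1248498-1248503, a K+-specific row of 6 bp, and chr1:1248631-1248687, a Na+-specific row of 57 bp, the gap was 127 bp. A peak of K+PEG replicate 1 (fold 3.10) and one of Na+PEG replicate 2 (fold 3.02) each spanned both rows, with the summit in neither. The K+-specific row chr1:1746767-1746962 had Na+-specific partners on one side at 105 and 386 bp, chr1:1746616-1746661 (46 bp) and chr1:1746229-1746380 (152 bp). A peak of K+PEG replicate 2 (fold 3.22) and one of Na+PEG replicate 1 (fold 2.83) spanned the K+-specific row and the nearer partner, and both had their summits in the K+-specific row. In these 2 loci the short rows were the strips where staggered peaks of replicates overlapped. The last of the 16 pairs, chr1:3215203-3215437 (K+-specific) and chr1:3216017-3216364 (Na+-specific), 579 bp apart, had no spanning peak. Its K+-specific row had folds of 3.79 and 6.09 in K+PEG replicates 1 and 2 and 4.19 in Na+PEG replicate 2. Its Na+-specific row had 3.33 and 2.92 in Na+PEG replicates 1 and 2 and 3.68 in K+PEG replicate 2.

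Enrichment under members differed little from that under other rows of the same type. Under K+-specific members, median fold enrichment was 4.23 in K+PEG replicate 1, against 3.98 under other K+-specific rows, and 3.92 in K+PEG replicate 2, against 3.76. Under Na+-specific members it was 2.99 in Na+PEG replicate 1, against 3.28 under other Na+-specific rows, and 3.26 in Na+PEG replicate 2, against 3.63. The members of the K+ type were thus above other rows of their list, and those of the Na+ type below, in both replicates. These are peaks that the choice of specific rows required, so the values are given without a test.

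By median, peaks of the other condition were lower than those of the row's own condition on K+-specific members, and higher on Na+-specific members. Over K+-specific members, the 9 peaks of Na+PEG replicate 1 had a median fold of 3.44 and the 4 of Na+PEG replicate 2 one of 2.69. The K+PEG medians there were 4.23 and 3.92. Over Na+-specific members, the 3 peaks of K+PEG replicate 1 had a median fold of 3.39 and the 10 of K+PEG replicate 2 one of 3.64. On Na+-specific members the K+PEG peaks that were called had medians above those of the Na+PEG libraries, 2.99 and 3.26. Under other Na+-specific rows the medians were 3.86 in both K+PEG libraries, against 3.28 and 3.63 in the Na+PEG libraries. Under other K+-specific rows they were 3.34 and 3.48 in the Na+PEG libraries, against 3.98 and 3.76 in the K+PEG libraries. Neither order was thus particular to members. All peaks passed the caller's threshold, so weaker signal below it is not seen in these values.

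**Figure D5:**
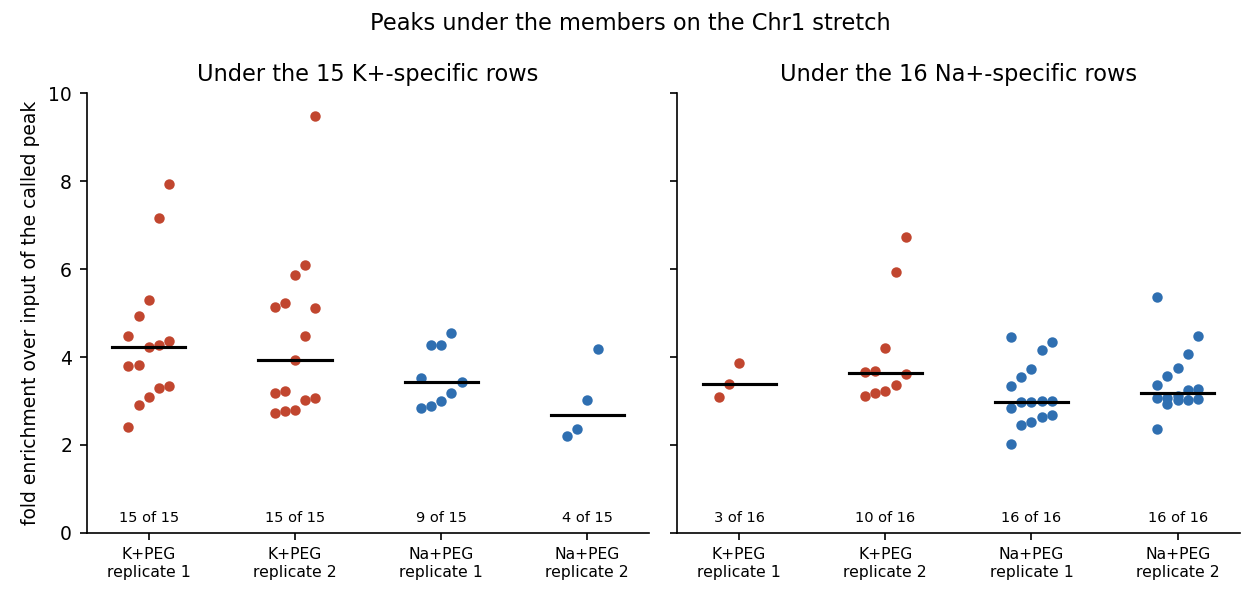
Fold enrichment over input of the called peak (y axis) under the 15 K+-specific members (left) and the 16 Na+-specific members (right) of the chromosome 1 stretch, by library (x axis), with a dot per row and a line at the median. K+PEG replicate 2 has peaks over 10 of 16 Na+-specific members with a median of 3.64, and Na+PEG replicate 1 over 9 of 15 K+-specific members with a median of 3.44.

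Over whole mixed loci, the median fold enrichment was 3.88 and 3.8 in K+PEG replicates 1 and 2, from 19 and 26 peaks, and 3.09 and 3.26 in Na+PEG replicates 1 and 2, from 24 and 17 peaks. The groups did not overlap, with means of 3.84 ± 0.0511 in K+PEG and 3.17 ± 0.123 in Na+PEG (SD, n = 2 each) and a difference of 0.666. The two-sided exact permutation test over libraries gave p = 0.333, the smallest that 2 libraries against 2 allow, so the design could not show a difference. The same order held over all peaks of the stretch, with library medians of 4.30 and 3.99 in K+PEG and 3.52 and 3.77 in Na+PEG, and was not particular to mixed loci.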

How the data were processed

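Reads had been trimmed (Trim Galore), aligned to the MSU v7.0 rice genome (BWA) and freed of PCR duplicates (SAMtools) by the authors, who ran MACS on every library against input. The deposited library lists give positions, a score (not used), the fold enrichment over input as a ratio, and the p-value and q-value of each peak on the −log10 scale, all from the authors' peak caller. The deposited specific lists hold positions only. They were made by the authors from segments shared by both replicates of a condition, without overlap in the other condition.

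Library lists were read to the end of the stretch of chromosome 1 that all 4 cover, and the incomplete last line of each was left out. Depth is not recorded in these lists, the read totals the study gives were not used in any calculation, and intervals cover counting error only. No input list was used. Gaps were measured between nearest edges, overlaps counted from 1 bp, and coordinates given counted from 1.

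The members, lists and named loci were chosen with earlier results of these data known. The loci named are the 10 closest pairs, 3 loci with the most rows (ties by chromosome, then start), the 3 longest members of each type, the chromosomes with the highest and lowest share of Na+-specific members, the pairs next to the 1 kb limit and all pairs of the stretch. The label-exchange mean came from a closed formula, without a p-value. The planned sign-flip permutation test of lengths over 12 chromosomes was run, but its p-values are not given, since length and position come from the same edges and the chromosomes from the same libraries. Libraries were compared by exact permutation, and the p-value measures only the spread between these libraries. The scripts were tested on simulated data and run in Python 3.11.15 with numpy 2.4.6, scipy 1.17.1 and matplotlib 3.10.9.

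Alternatives were windows of 500 bp and 2 kb, midpoints, rows of at least 200 bp, medians, another set of other rows, rebuilt lists, an overlap of 50%, the 50% of peaks of smallest p-value, each library left out, and a replicate block. GC content and guanine runs of the rows, and the genes near them, were not analysed here, since they need the genome of the files' build.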

Additional observations from a re-analysis of the deposited data

How the results depend on the processing

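Over 36 alternatives for 8 results, 19 kept the result, 12 moved it, 5 brought a length difference to under 2 bp and none reversed a direction. The 1310 mixed pairs became 786 with a window of 500 bp, 2382 with 2 kb and 761 with rows of at least 200 bp only, and the share of Na+-specific rows that were members became 8.60%, 22.6% and 10.9%, and 11% between midpoints. The length difference of −9.44 bp for the K+ type became −0.852 bp against rows with a neighbour of their own type and −1.63 bp with 2 kb. That of −5.47 bp for the Na+ type became −0.228 bp, −0.557 bp and, for medians, −0.958 bp. With a window of 500 bp the differences were −15.7 and −18.3 bp.

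On the chromosome 1 stretch, the 16 mixed pairs became 37 when overlaps had to cover 50% of both intervals, 20 of them with rows that overlap, and 3 when only the 50% of peaks of smallest p-value were kept in each library. Leaving out 1 library gave 10 pairs (without Na+PEG replicate 2) to 18 (without Na+PEG replicate 1). Leaving out 1 library of the other condition gave shares with such a peak of 26.7% to 60% for K+-specific members and 18.75% to 62.5% for Na+-specific members. Fewer peaks entered when only the peaks of smallest p-value were kept. For the pair counts without 1 library, the whole list of the other library stood for its condition. The 50% overlap gave 229 K+-specific and 172 Na+-specific rows, against 205 and 121 in the lists. The cause of these shifts was not tested.

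The fold difference of 0.666 at mixed loci was 0.579 to 0.753 without single libraries and 0.938 for means. Paired by replicate number, the differences were 0.789 and 0.543, and the replicate block gave 0.666 (exact permutation p = 0.5, the smallest it allows). Over 392 segments with a peak in all 4 libraries, deviations of same-numbered replicates correlated at −0.12. This weak correlation over called peaks shows no pairing by number and cannot exclude it. A crossed block, added after the data were seen, changed no call. Signal below the caller's threshold is not in the lists, so a row without a called peak is not shown to be without signal. The part of depth was not tested.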
